A study of Mus musculus with 10 samples.

Results

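The genes described here make, take up and use arginine. They were measured in K7M2, an established osteosarcoma line of the mouse, and in its ezrin-edited derivatives. They are the 10 genes Ass1, Asl, Arg2, Nos2, Slc7a1, Slc7a2, Odc1, Oat, Srm and Sms, taken by name from deposited tables of 41743 genes. The members were chosen by pathway role with the count and RPKM values of all 10 libraries already analysed, so the levels and changes of the 10 genes are given as a description and without p-values. Poly-A RNA was sequenced from 10 libraries, which form 5 lines of 2 libraries each. The replicate numbers in the titles run from 1 to 3, and each line lacks 1 of them, for a reason not stated. In 4 derived lines the endogenous ezrin gene had been disrupted by CRISPR/Cas9 (genotype Ezrin -/- per the labels) and a vector stably transfected. The T567A line carried ezrin that cannot be phosphorylated at its regulatory threonine, the T567D line ezrin that mimics phosphorylation there, the wild-type line unmutated ezrin, and the empty-vector line (mock transfected in the labels) no ezrin insert. Parental K7M2 cells, with ezrin intact and no vector, were the fifth line. No line received any treatment. Each construct was present in 1 stable line, and all derived titles carry the tag col3, so the construct, the line and a possible common clone cannot be told apart. Whether the 2 libraries of a line were grown separately is not stated, and the spread behind the p-values may therefore be technical.

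Arginine enters most cells through the cationic amino acid transporters, of which SLC7A1 is the widely expressed one and SLC7A2 a relative found in liver and activated macrophages. Cells can also build arginine from citrulline and aspartate: argininosuccinate synthase (Ass1) joins them and argininosuccinate lyase (Asl) releases arginine and fumarate. Arginase 2 (Arg2, mitochondrial) turns arginine into ornithine and urea, and inducible nitric oxide synthase (Nos2) turns it into nitric oxide and citrulline. Ornithine aminotransferase (Oat) links ornithine with glutamate and proline. Ornithine decarboxylase (Odc1) makes putrescine, the first polyamine, which spermidine synthase (Srm) and spermine synthase (Sms) extend. Loss of ASS1 makes tumour cells dependent on arginine from outside, a state well known in human osteosarcoma and other cancers.

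The promoter sequence of Ass1 is shown because Ass1 was the member with the widest range of levels over the lines. The sequences of Odc1 and Sms are shown as examples of members that were lower in each derived line than in parental cells. Oat was also lower in each, but its window and that of the other Sms start are not printed. RefSeq promoter windows (build GRCm38.p6) were matched for 5 of the 10 genes, in 7 windows, since Slc7a1 and Sms have more than 1 start. Each sequence holds the 250 bases before the RefSeq start site, 5′ to 3′ on the gene's strand, for Ass1 at chr2:31470020-31470269 (plus strand), for Odc1 at chr12:17544623-17544872 (plus strand) and for the upstream start of Sms at chrX:157492288-157492537 (minus strand). Capitals mark CACGTG (the E-box, bound by MYC family proteins) and GGGCGG or its complement CCGCCC (the GC box, bound by SP family proteins).
Ass1: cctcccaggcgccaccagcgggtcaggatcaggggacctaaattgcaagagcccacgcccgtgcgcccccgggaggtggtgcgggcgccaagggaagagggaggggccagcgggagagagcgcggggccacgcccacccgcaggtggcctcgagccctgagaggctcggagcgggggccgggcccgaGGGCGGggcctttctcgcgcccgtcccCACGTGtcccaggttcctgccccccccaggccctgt
Odc1: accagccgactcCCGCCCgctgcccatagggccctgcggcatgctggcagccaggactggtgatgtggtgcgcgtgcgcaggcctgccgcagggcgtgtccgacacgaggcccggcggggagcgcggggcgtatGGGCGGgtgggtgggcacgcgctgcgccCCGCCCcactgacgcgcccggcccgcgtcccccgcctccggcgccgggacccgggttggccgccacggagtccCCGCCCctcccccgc
Sms: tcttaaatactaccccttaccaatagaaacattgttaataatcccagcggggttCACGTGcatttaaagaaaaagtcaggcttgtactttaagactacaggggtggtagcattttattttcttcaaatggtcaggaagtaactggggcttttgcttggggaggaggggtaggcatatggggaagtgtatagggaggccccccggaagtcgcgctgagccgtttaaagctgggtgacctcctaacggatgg
In the Ass1 window the E-box lay at positions -36 to -31 from the start and a GC box at -63 to -58, without overlap. The Odc1 window held 4 GC boxes and no E-box. The upstream Sms window held 1 E-box and no GC box, while the window of its other start held 4 GC boxes. Of 32841 promoter windows of the same length, 6.02% hold CACGTG and 32.7% hold GGGCGG on either strand. TGATGNAA, the core of the amino acid response element bound by ATF4, was in 3.45% of all windows and in 0 of the 7 member windows. The Oat window and the downstream Slc7a1 window held none of these motifs. A match describes letters and shows no binding.

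Total counts per library were between 14679424 (T567A replicate 2) and 18230763 (T567A replicate 3), so that 3 counts, used as the floor of detection, equal 0.167 to 0.207 CPM, the count scaled to a library's TMM-adjusted size. Mitochondrially encoded genes took 1.44% to 1.90% of counts in the T567A libraries and 0.844% to 1.33% in the other 8. Ezr, the targeted gene, had 248 and 253 CPM in T567A, 204 and 181 CPM in T567D, 230 and 233 CPM in wild-type, 72.4 and 72.8 CPM in empty-vector and 164 and 166 CPM in parental libraries. How far vector-derived and endogenous mRNA each add to these counts was not tested. Of 8 osteoblast markers, Col1a2, Spp1 and Runx2 were expressed in every line, and Sp7, Bglap and Ibsp stayed at or under 0.28 CPM. Col1a1 averaged 603 CPM in T567A, 734 in T567D, 259 in wild-type, 323 in empty-vector and 1815 in parental cells. Alpl averaged 2.80 CPM in T567A, 12.9 in T567D, 9.60 in wild-type, 5.63 in empty-vector and 1.98 in parental cells. The part of these marker differences in the changes below was not tested. Among 7 blood cell markers, Ptprc, Adgre1 and Itgam had at most 0.41 CPM, Lyz2 had 0.174 to 2.25 CPM, Cd68 had 1.79 to 2.63 CPM, Cd14 had 32.4 to 40.4 CPM and Csf1r was high in every library, at 1176 to 1680 CPM.

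Of the 10 genes, 7 passed the filter on low counts and entered the test. The other 3 were close to undetected. Positions are those of GENCODE M21 on GRCm38. Slc7a2 (chromosome 8, 40862396 to 40922308) had 0 counts in all 10 libraries, which allows up to 0.0175 CPM over the pooled reads (counting error only). Slc7a2 shares 635 exon bases with Gm26584 on the other strand, where this bound may not hold if counting ignored the strand. Arg2 (chromosome 12, 79130777 to 79156301) had 5 counts in all, with at most 2 in a library. It shares 285 exon bases with Vti1b on the other strand, and whether counting used the strand is not given in the sources used here. Nos2 (chromosome 11, 78920787 to 78960254) had 4 and 1 counts in T567A, 0 and 0 in T567D, 1 and 0 in wild-type, 6 and 4 in empty-vector and 1 and 1 in parental libraries. The empty-vector counts were the highest, but the T567A and empty-vector libraries overlapped, and no fold is given at this depth. Arg1, the cytosolic arginase, also had at most 1 count in a library.

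Arginine synthesis showed the widest contrast. Ass1 (chromosome 2, 31470207 to 31520672) had 54 and 70 counts in T567A, 129 and 122 in T567D, 65 and 75 in wild-type and 66 and 51 in empty-vector libraries, against 4409 and 3983 in parental libraries. In CPM this was 3.81 ± 0.119 in T567A, 7.29 ± 0.227 in T567D, 4.03 ± 0.355 in wild-type, 3.34 ± 0.552 in empty-vector and 244 ± 16.9 in parental cells (mean ± SD, n = 2 each). No derived library came near a parental one. The log2 fold change against parental cells was -6.00 ± 0.10 (SE) in T567A, -5.06 ± 0.09 in T567D, -5.92 ± 0.10 in wild type and -6.19 ± 0.11 in the empty-vector line, or 63.8-fold, 33.5-fold, 60.4-fold and 72.9-fold lower. Between the wild-type and the empty-vector line Ass1 differed by 0.27 ± 0.17, or 1.21-fold, which did not pass the threshold of an adjusted p under 0.05 over all genes. The T567D line stood above the other derived lines, with both libraries over 7 CPM against at most 4.28 CPM elsewhere, while T567A overlapped both wild type and the empty-vector line. Ass1 was 0.85 ± 0.15 higher in T567D than in wild type on the log2 scale, and 0.77 without wild-type replicate 1, where it no longer passed. It was -0.93 ± 0.15 in T567A relative to T567D. One annotated gene, Gm5424, is 99.52% identical to Ass1 mRNA over 1240 bases, so some reads of Ass1 may belong to it.

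Asl, the next enzyme (chromosome 5, 130011258 to 130029247), did not follow Ass1. Its libraries had 18.9 and 18.9 CPM in T567A, 15.6 and 16.5 in T567D, 21.6 and 19.9 in wild-type, 19.4 and 20.7 in empty-vector and 18.9 and 18.3 in parental cells. The whole range of line means was 1.29-fold, with both T567D libraries below those of all other lines. The fold change against parental cells lay between -0.21 ± 0.10 (T567D) and 0.16 ± 0.09 (wild type) and none passed. The T567D line was at -0.37 ± 0.09 relative to wild type, just short of the threshold, and passed at the same -0.37 when either T567A library was left out of the fit.

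Levels of different genes can be compared only per length, for which the authors' RPKM values were used. In the derived lines Ass1 stood below Asl: 0.394 and 0.413 times Asl in T567A, 0.956 and 0.863 in T567D, 0.350 and 0.430 in wild type, and 0.384 and 0.285 in the empty-vector line. In parental libraries Ass1, at 96.7 and 87.8 RPKM, was 27.1 and 25.4 times Asl, at 3.57 and 3.46 RPKM. The order of the 7 genes in the empty-vector line, from Srm (150 ± 4.72 RPKM) over Odc1 (114 ± 3.18), Oat (50.2 ± 1.33), Slc7a1 (19.1 ± 0.0386), Sms (9.64 ± 0.155) and Asl (3.90 ± 0.175) down to Ass1 (1.30 ± 0.214), was headed by polyamine enzymes. In parental cells Srm (180 ± 0.871 RPKM) and Odc1 (146 ± 11.3) also led, with Ass1 (92.2 ± 6.31) ahead of Oat (61.6 ± 0.0324). In RPKM, the Odc1 level was 58.8 and 60.5 times that of Ass1 in T567A, 35.6 and 35.3 times in T567D, 71.8 and 64.9 times in wild-type, 77.2 and 101 times in empty-vector and 1.59 and 1.58 times in parental libraries.

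**Figure D1:**
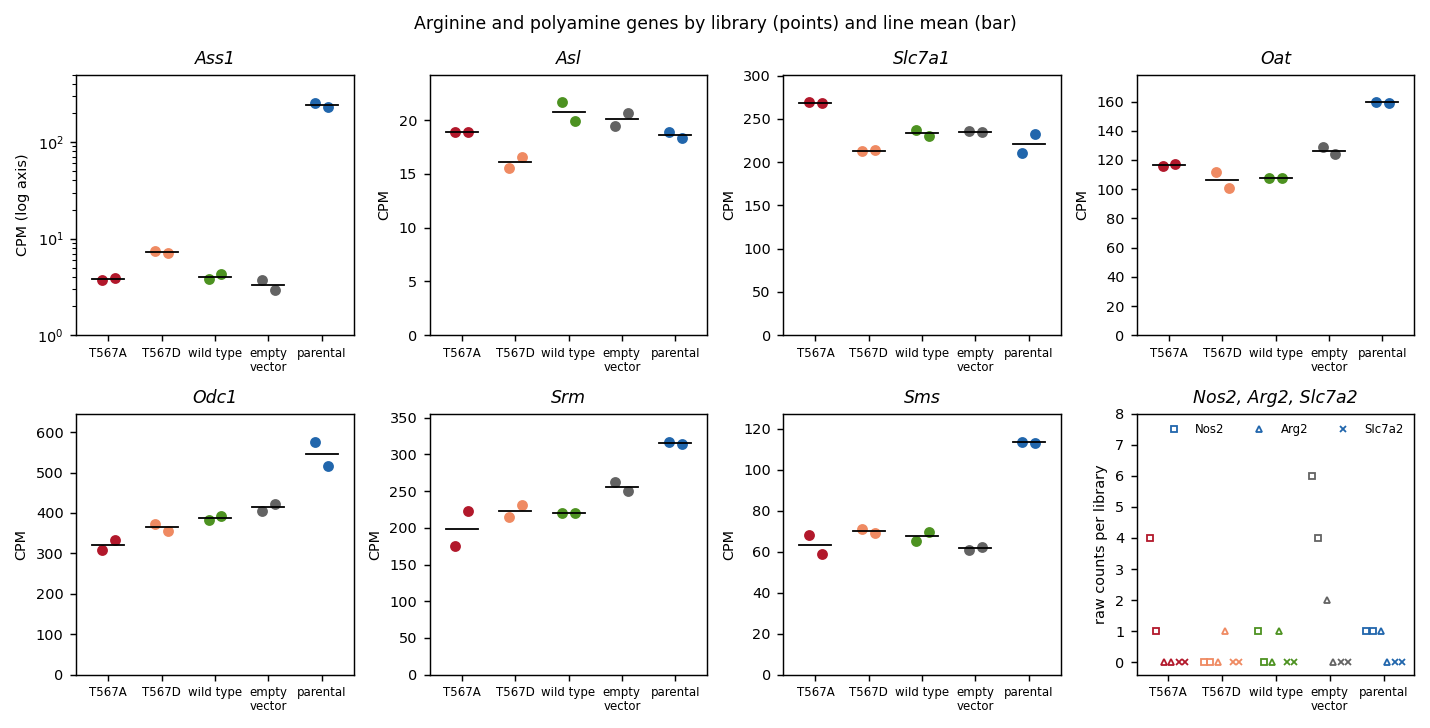
Level of each gene in every library, in CPM (Ass1 on a log axis), with bars at the mean of the 2 libraries of a line, and raw counts of Nos2, Arg2 and Slc7a2 in the last panel. Ass1 lies between 2.95 and 7.45 CPM in the derived libraries and above 232 CPM in parental ones, while Asl stays between 15.6 and 21.6 CPM throughout.

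**Figure D2:**
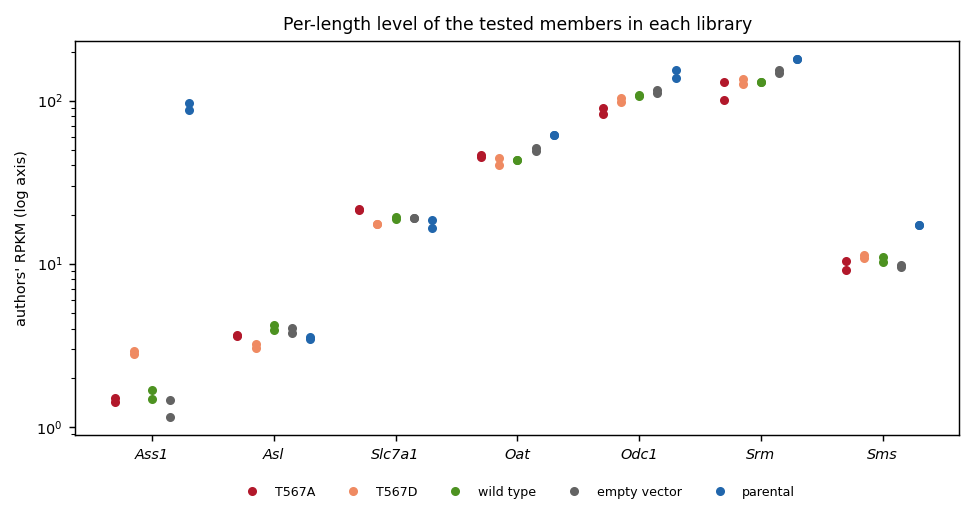
The authors' RPKM of the 7 tested genes in each library, on a log axis, with lines as colours. Ass1 is the lowest of the 7 in each derived line (1.30 to 2.85 RPKM) and the third highest in parental cells (92.2 RPKM).

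Of the 2 uptake genes only Slc7a1 (chromosome 5, 148327410 to 148399904) had counts. It had 269 and 268 CPM in T567A, 213 and 214 in T567D, 237 and 230 in wild-type, 235 and 235 in empty-vector and 210 and 233 in parental libraries. T567A was the highest line and did not overlap any other, while wild type overlapped both the empty-vector and the parental line and T567D lay within the parental range. The log2 change was 0.28 ± 0.06 in T567A against parental cells, 0.20 ± 0.06 against wild type and 0.33 ± 0.06 against T567D, or 1.21-fold, 1.15-fold and 1.26-fold. The change against wild type fell short of the threshold without wild-type replicate 3 (0.18). The T567D, wild-type and empty-vector lines differed from parental cells by -0.05 ± 0.06, 0.08 ± 0.06 and 0.09 ± 0.06. The T567A libraries were also those with the highest mitochondrial share, and the part of this in the Slc7a1 level was not tested.

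Odc1, Srm, Sms and Oat, the ornithine and polyamine enzymes among the members, were lower in all derived lines than in parental cells, by much less than Ass1. Odc1 (chromosome 12, 17544794 to 17551505) had 309 and 333 CPM in T567A, 373 and 355 in T567D, 383 and 392 in wild-type, 406 and 422 in empty-vector and 576 and 516 in parental libraries. The lines were ordered without overlap, parental highest and T567A lowest. Against parental cells the log2 change was -0.77 ± 0.06 in T567A, -0.58 ± 0.06 in T567D, -0.49 ± 0.06 in wild type and -0.40 ± 0.06 in the empty-vector line. Odc1 was also lower in T567A than in wild type (-0.27 ± 0.06) and than in T567D (-0.18 ± 0.06). The last of these did not pass without T567A replicate 2 (-0.13), without T567D replicate 1 (-0.15), or in a fit of the libraries of these lines alone (-0.18). Odc1 mRNA is similar to 13 annotated genes, at 91.28% to 97.76% identity over at least 200 bases, so its counts could be shared with them.

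Srm (chromosome 4, 148591503 to 148594993) had 175 and 223 CPM in T567A, 214 and 231 in T567D, 220 and 220 in wild-type, 262 and 250 in empty-vector and 317 and 315 in parental libraries. The annotated gene Gm5364 is 91.13% identical to Srm mRNA over 902 bases, so some reads of Srm may belong to it. Parental and empty-vector libraries stood apart from all others and from each other, whereas T567A, T567D and wild type overlapped. The change against parental cells was -0.67 ± 0.08 in T567A, -0.51 ± 0.08 in T567D, -0.52 ± 0.08 in wild type and -0.30 ± 0.08 in the empty-vector line. The T567A libraries differed most: relative to wild type Srm was at -0.14 ± 0.08 with both, at -0.34 without T567A replicate 3, where it passed, and at 0.022 without T567A replicate 2. Relative to T567D the same changes were -0.16 ± 0.08, -0.35 (which passed) and 0.0077.

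Sms (chromosome X, 157443855 to 157492287) was the polyamine gene among the members with the largest distance between the derived lines and parental cells. It had 68.0 and 58.8 CPM in T567A, 71.3 and 69.2 in T567D, 65.4 and 69.8 in wild-type and 61.0 and 62.4 in empty-vector libraries, against 114 and 113 in parental libraries. Each derived line overlapped the next in the order of their means. The log2 change against parental cells was -0.84 ± 0.07 in T567A, -0.69 ± 0.07 in T567D, -0.75 ± 0.07 in wild type and -0.88 ± 0.07 in the empty-vector line. T567A was at -0.10 ± 0.07 relative to wild type and at -0.15 ± 0.07 relative to T567D. Neither passed. Both rested on T567A replicate 3: without T567A replicate 2 they passed, at -0.20 and -0.25, and without T567A replicate 3 they were at 0.0038 and -0.049. Sms mRNA is identical to the annotated copy Sms-ps over 1101 bases and similar to 5 more genes, so its counts are uncertain in the same way as those of Odc1.

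Oat (chromosome 7, 132557478 to 132576398) had 116 and 117 CPM in T567A, 112 and 101 in T567D, 108 and 108 in wild-type, 129 and 124 in empty-vector and 159 and 159 in parental libraries. Parental libraries were highest, the empty-vector ones next and apart, and T567D overlapped wild type at the low end. The change against parental cells was -0.45 ± 0.06 in T567A, -0.59 ± 0.06 in T567D, -0.56 ± 0.06 in wild type and -0.34 ± 0.06 in the empty-vector line. Wild type was at -0.23 ± 0.06 relative to the empty-vector line, a difference that passed with all libraries and fell short when any 1 of the 4 libraries of these lines was left out (-0.25 to -0.20). T567A was 0.13 ± 0.06 above T567D, which passed only without T567D replicate 1 (0.21).

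**Figure D3:**
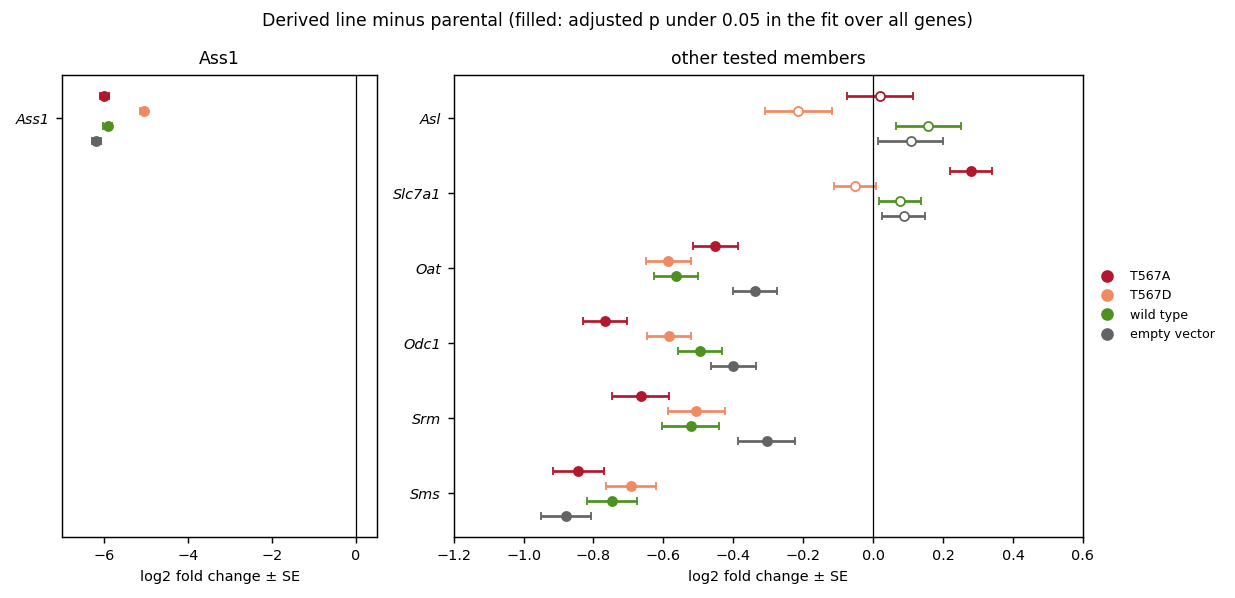
Log2 fold change ± SE of the 7 tested genes in each derived line against parental cells, with filled points where the adjusted p was under 0.05 in the fit over all genes. Ass1 lies at -6.19 to -5.06 on its own axis, Oat, Odc1, Srm and Sms between -0.88 and -0.30, and Asl and Slc7a1 around 0 except for Slc7a1 in T567A (0.28).

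**Figure D4:**
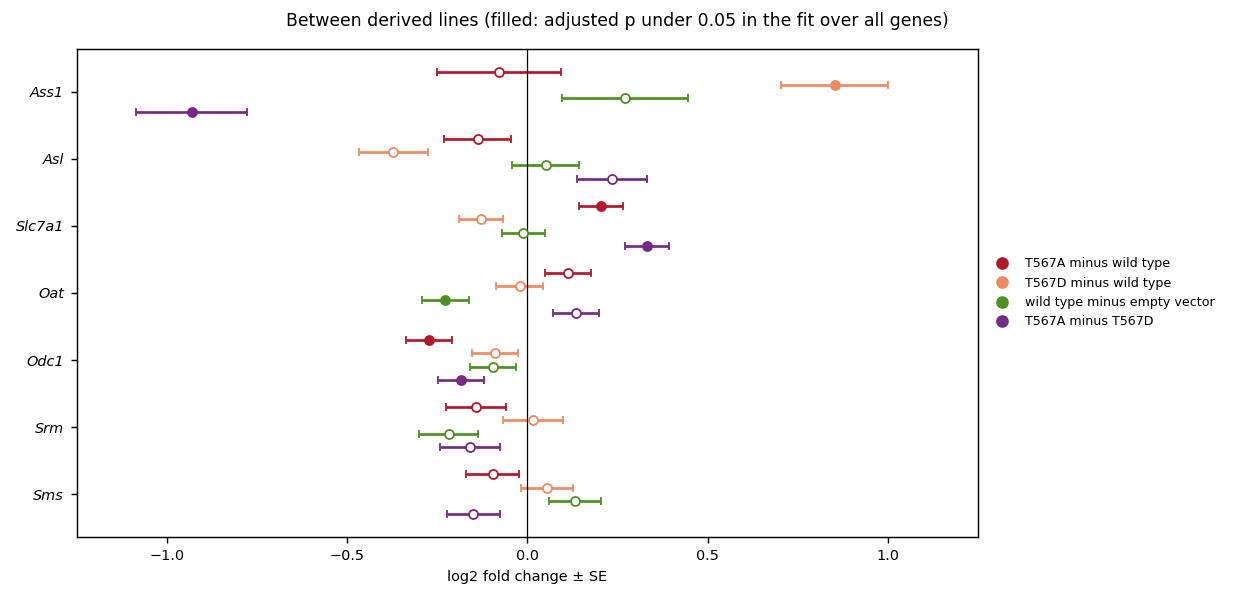
Log2 fold change ± SE of the same genes between derived lines, with filled points where the adjusted p was under 0.05. Ass1 in T567D against wild type (0.85) and in T567A against T567D (-0.93) lie farthest from 0.

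Counts of called genes are given beside the share called among all 12595 tested genes, by edgeR's quasi-likelihood test at a Benjamini-Hochberg adjusted p under 0.05. Against parental cells, T567A had 6 of 7 tested members called (1 higher, 5 lower), where 62.1% of all tested genes were called (31.4% higher, 30.7% lower). T567D had 5 of 7 called, all lower, with 55.3% of all genes (27.1% higher, 28.2% lower). The same 5 of 7 were called lower in wild type, with 56.2% of all genes (27.7% higher, 28.5% lower), and in the empty-vector line, with 54.6% (27.4% higher, 27.2% lower). These are Ass1, Oat, Odc1, Srm and Sms, and the 4 comparisons share the parental libraries. The median change of the 7 was -0.67 in T567A, -0.58 in T567D, -0.52 in wild type and -0.34 in the empty-vector line, and the median of all tested genes was between -0.0034 and 0.0097. Between derived lines fewer were called. There was 1 of 7 in wild type against the empty-vector line (Oat, lower), where 15.6% of all genes were called (8.25% higher, 7.36% lower). There were 2 of 7 in T567A against wild type (Slc7a1 higher, Odc1 lower), with 39.6% of all genes (20.4% higher, 19.1% lower). There was 1 of 7 in T567D against wild type (Ass1, higher), with 1.34% of all genes (0.818% higher, 0.524% lower). There were 3 of 7 in T567A against T567D (Slc7a1 higher, Ass1 and Odc1 lower), with 44.1% of all genes (22.5% higher, 21.6% lower). Since results of these libraries were known when the genes were chosen, nothing is read from these shares.

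The genes nearest to Ass1 in pattern, among 9357 others with at least 10 CPM in their highest line, were Il2rg (root mean square distance 0.435 between centred log2 CPM over the 10 libraries), Lncpint (0.466) and Adgrl1 (0.483). All 3 reached that level only in parental cells, and some derived-line means of Il2rg and Adgrl1 lie under the floor of 0.167 to 0.207 CPM, so these distances rest in part on near-zero counts. Il2rg, the common cytokine receptor chain, averaged 0.270 CPM in T567A, 0.466 in T567D, 0.201 in wild-type, 0.113 in empty-vector and 16.5 in parental cells. Lncpint, a long noncoding RNA gene, averaged 0.990, 0.988, 1.21 and 1.00 CPM in the T567A, T567D, wild-type and empty-vector lines and 46.0 CPM in parental cells. Adgrl1, an adhesion G protein-coupled receptor gene, averaged 0 CPM in T567A, 0.232 in T567D, 0.115 in wild-type, 0.0289 in empty-vector and 15.3 in parental cells. None of the other 6 tested members had line means spanning 1 log2 unit, so no such search was made for them.

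A wider list of 77 genes around the same reactions was set by role, of which 64 entered the test. It too was drawn up with earlier results of these libraries known, so its adjusted p-values describe these libraries and are not independent support. Against parental cells, 39 were called in T567A (21 higher, 18 lower), 36 in T567D (15 higher, 21 lower), 35 in wild type (17 higher, 18 lower) and 34 in the empty-vector line (15 higher, 19 lower). As shares these were 60.9%, 56.2%, 54.7% and 53.1%, beside 62.1%, 55.3%, 56.2% and 54.6% of all genes. Glul, which makes glutamine, fell in each derived line, to 33.3 ± 0.437 CPM in T567A, 42.3 ± 3.35 in T567D, 46.7 ± 2.00 in wild type and 43.2 ± 2.29 in the empty-vector line against 95.3 ± 7.64 in parental cells (log2 fold change -1.52 to -1.03, edgeR adjusted p at most 3.19e-10). Pycr1, which makes proline, also fell in T567A (-0.78 ± 0.15), T567D (-1.13 ± 0.16), wild type (-0.93 ± 0.15) and the empty-vector line (-1.05 ± 0.16). Eif5a2, the minor form of the factor that carries hypusine, a residue made from spermidine, rose to 28.0 ± 5.07 CPM in T567A, 19.6 ± 0.741 in T567D, 19.4 ± 1.78 in wild type and 19.5 ± 1.04 in the empty-vector line against 7.59 ± 0.926 (log2 fold change 1.35 to 1.87, adjusted p at most 3.48e-08). Padi2, a peptidylarginine deiminase gene, rose in T567A (0.55 ± 0.23), T567D (1.57 ± 0.20), wild type (1.65 ± 0.20) and the empty-vector line (1.57 ± 0.20) against 2.36 ± 0.364 CPM in parental cells. Castor1, the cytosolic arginine sensor, fell in T567A (-1.19 ± 0.17), T567D (-0.62 ± 0.15), wild type (-0.99 ± 0.16) and the empty-vector line (-0.86 ± 0.16).

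Transporters of the wider list went both ways. In the T567A line 5 of 10 tested were higher than in parental cells, 2 were lower and 3 were not called, where 31.4% of all genes were called higher and 30.7% lower. Slc25a29, a mitochondrial carrier of basic amino acids, rose to 6.98 ± 0.508 CPM in T567A against 2.53 ± 0.130 in parental cells (1.47 ± 0.18, adjusted p = 4.00e-07). It was also higher in T567D (0.74 ± 0.19), wild type (0.76 ± 0.19) and the empty-vector line (0.75 ± 0.19). Slc38a9, the lysosomal arginine sensor, rose in each derived line, to 17.7 ± 2.13 CPM in T567A, 15.2 ± 0.742 in T567D, 15.0 ± 0.482 in wild type and 18.9 ± 0.703 in the empty-vector line against 9.84 ± 0.714 in parental cells (log2 fold change 0.61 to 0.94, edgeR adjusted p at most 0.000135). Pqlc2, a lysosomal exporter of cationic amino acids, also rose in each, to 9.91 ± 0.544 CPM in T567A, 9.61 ± 0.121 in T567D, 8.62 ± 0.398 in wild type and 9.72 ± 0.158 in the empty-vector line against 5.62 ± 0.221. Slc7a3 and Slc7a6 had lower means in each derived line. Slc7a3 averaged 1.71 CPM in T567A, 0.757 in T567D, 1.29 in wild type and 0.513 in the empty-vector line against 4.89 in parental cells. Slc7a6 averaged 76.6 CPM in T567A, 71.9 in T567D, 67.4 in wild type and 66.3 in the empty-vector line against 86.9 in parental cells. In polyamine control, breakdown and transport most genes were not called: 11 of 16 in T567A, 10 in T567D, 13 in wild type and 12 in the empty-vector line. The shares called were 31.2%, 37.5%, 18.8% and 25%, beside 62.1%, 55.3%, 56.2% and 54.6% of all genes, and the difference was not tested. Amd1, a gene of this group, averaged 116 CPM in T567A, 107 in T567D, 115 in wild type and 133 in the empty-vector line. Its parental mean was 112 CPM. Smox, which oxidises spermine, was 0.73 ± 0.15 higher in wild type than in parental cells (edgeR adjusted p = 0.000341), and was called higher in T567A (0.41 ± 0.16) and T567D (0.63 ± 0.15) but not in the empty-vector line (0.05 ± 0.16). Carm1, an arginine methyltransferase gene, fell in T567A (-0.74 ± 0.07), T567D (-0.63 ± 0.07), wild type (-0.63 ± 0.07) and the empty-vector line (-0.43 ± 0.06).

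Between derived lines, T567A differed from wild type in 19 of the 64 genes (11 higher, 8 lower), or 29.7% beside 39.6% of all genes, and from T567D in 25 (16 higher, 9 lower), or 39.1% beside 44.1% of all genes. Castor2, related to the cytosolic arginine sensor CASTOR1, had 6.14 and 5.23 CPM in T567A, 16.0 and 16.9 in T567D, 12.9 and 13.9 in wild-type, 8.19 and 10.2 in empty-vector and 18.0 and 17.1 in parental libraries. It fell in T567A relative to wild type (-1.24 ± 0.14, adjusted p = 3.40e-07), to T567D (-1.54 ± 0.13, adjusted p = 7.79e-09) and to parental cells (-1.63 ± 0.13, adjusted p = 6.99e-10). Of the transcription factors described as regulators of pathway genes, Hif1a was at 333 ± 16.6 CPM in T567A against 184 ± 12.0 in wild type (0.86 ± 0.07, adjusted p = 1.87e-09). Atf4, the amino acid response factor, was at 573 ± 33.3 CPM in T567A against 379 ± 7.70 in wild type (0.59 ± 0.06, adjusted p = 6.43e-08). Both were also higher in T567A than in T567D, by 0.94 ± 0.07 and 0.71 ± 0.06. Atf4 was next highest in the empty-vector libraries, at 451 and 433 CPM, against 385 and 374 in wild-type libraries. It had 351 and 351 CPM in T567D and 331 and 330 in parental libraries. Of the 5 tested factors, 2 were called higher in T567A than in wild type, and 1, Cebpb (-0.40), was called lower. The other 2 were not called. Of all genes, 20.4% were called higher and 19.1% lower in this comparison. Slc25a29 was 0.71 ± 0.16 higher in T567A than in wild type (adjusted p = 0.00158). Padi2 was lower (-1.10 ± 0.18), at 3.46 ± 0.0889 CPM in T567A against 7.41 ± 0.545 in wild type. Azin2, an antizyme inhibitor gene, was at -0.67 ± 0.21 in T567A against wild type (adjusted p = 0.0170), a call lost without T567A replicate 3 (-0.54) or wild-type replicate 1 (-0.37). By DESeq2 Azin2 was at -0.675 and was not called (adjusted p = 0.0524). Without wild-type replicate 1 the count of 19 was 11.

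In wild type against the empty-vector line 14 of 64 genes were called (7 higher, 7 lower), or 21.9% beside 15.6% of all genes, but the count was 2 without wild-type replicate 3 or empty-vector replicate 2, 5 without the other library of either line, and 19 without T567A replicate 2. The 6 genes named there by rule were Smox (0.68 ± 0.15), Castor2 (0.54 ± 0.12) and Prodh (0.50 ± 0.14), higher in wild type, and Ddah2 (-0.55 ± 0.14), Cebpb (-0.49 ± 0.10) and Slc38a9 (-0.33 ± 0.11), lower. Each of the 6 lost its call without at least 1 of the 4 libraries of these lines. DESeq2 did not call Prodh (0.52, adjusted p = 0.0715), Ddah2 (-0.54, adjusted p = 0.106) or Slc38a9 (-0.32, adjusted p = 0.182). T567D against wild type gave 0 calls of 64 by edgeR, DESeq2 and limma on RPKM, with 6, 2 and 7 genes at an unadjusted p under 0.05; edgeR called 1.34% of all genes there.

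**Figure D5:**
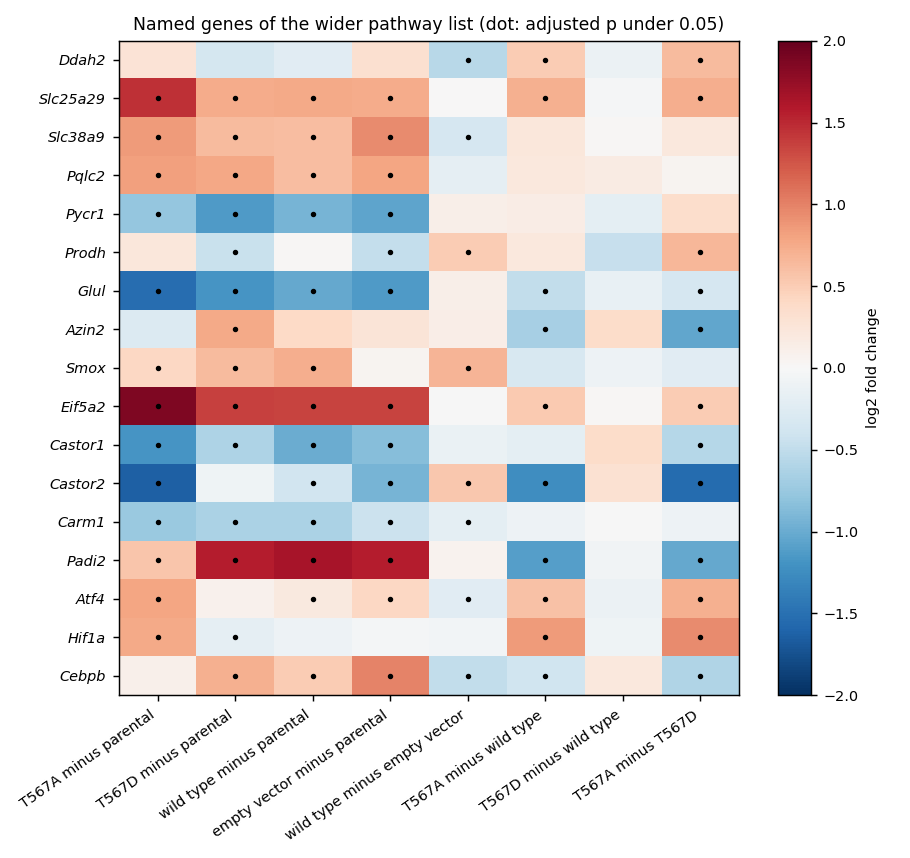
Log2 fold change (colour) of the named genes of the wider list in the 8 comparisons, with a dot where the adjusted p was under 0.05. Glul is lower and Eif5a2 higher in each derived line than in parental cells, and Castor2, Hif1a and Atf4 carry a dot in T567A against wild type and against T567D.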

How the data were processed

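Poly-A RNA of 10 libraries went into dUTP strand-marked libraries read by DNBSEQ, per the labels' protocols. The build was GRCm38, per the submitters' processing notes. The authors deposited raw counts per gene name and RPKM values for each library; no aligner, counter, annotation or strand setting is given in the sources used here. The count test was that of edgeR 4.0.16 (R 4.3.3): filterByExpr (minimum count 10, minimum total 15) left 12595 genes, libraries were scaled by TMM, and 1 robust quasi-likelihood fit held all 10 libraries and 5 line means (5 residual degrees of freedom). In each of 8 comparisons a gene was called where its two-sided p, adjusted by Benjamini-Hochberg over all tested genes, was under 0.05. On simulated counts for T567A against wild type the share of false calls was above the nominal threshold and the smaller fold changes were recovered less often, so calls near the threshold are uncertain. The members and lists were chosen with earlier results of these data known. Named genes of the wider list were, per comparison, the 3 that increased most and the 3 that decreased most among called genes averaging 5 CPM or more in the higher line. Genes near Ass1 in pattern needed 10 CPM in their highest line. Positions and transcripts come from GENCODE M21 (GRCm38), and similar transcripts were found with minimap2 2.31-r1302. In no line did the 2 count files hold the same values, and the libraries of a line differed beyond sampling noise (chi-square per degree of freedom 2.09 to 6.63). Alternatives were RLE or upper-quartile scaling, DESeq2 1.42.0, other filters, a replicate block, a fit restricted to both lines in question, limma 3.58.1 on log2(RPKM + 1) and log2(RPKM + 0.1), and leaving out each library. Figures were drawn with matplotlib 3.10.9.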

Additional observations from a re-analysis of the deposited data

Results flagged for a closer look

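In these genes both T567A libraries lay on one side of both wild-type libraries and both T567D libraries on the other, and the difference between the mutant lines was called by edgeR (adjusted p under 0.05 over all genes). Only the tested members and the named genes of the wider list were searched. The named genes had been picked by their called changes in these same comparisons. Their adjusted p-values below are thus a description and not independent support. Slc7a1, chosen with results of these libraries known, was 0.33 ± 0.06 higher in T567A than in T567D on the log2 scale. Castor2 was at -1.54 ± 0.13 (adjusted p = 7.79e-09). Azin2 was at -1.04 ± 0.20 (adjusted p = 0.000372). Cebpb, a transcription factor gene, was at -0.60 ± 0.11 (adjusted p = 0.000233). Atf4 was at 0.71 ± 0.06 (adjusted p = 4.01e-09). Prodh, which breaks down proline, was at 0.67 ± 0.13 (adjusted p = 0.000386). None of the 6 differences between T567D and wild type was called (Slc7a1 -0.13, Castor2 0.30, Azin2 0.37, Cebpb 0.20, Atf4 -0.11, Prodh -0.46), so a shift of T567D away from wild type is not established. T567A against wild type was at 0.20 for Slc7a1, -1.24 for Castor2, -0.67 for Azin2, -0.40 for Cebpb, 0.59 for Atf4 and 0.21 for Prodh. For Prodh this T567A change was not called, so neither mutant line had a called difference from wild type in that gene. The T567A call was not made by DESeq2 for Azin2 (adjusted p = 0.0524) and was lost for Slc7a1 with a replicate block. The changes of both mutant lines against wild type share the wild-type libraries.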

How the results depend on the processing

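Of the 56 changes of members, the 28 against parental cells kept their side of the threshold under all 19 settings. Lines with the same replicate numbers had deviations correlated at -0.100 to -0.007, so the numbers did not pair those samples. Wild type and the empty-vector line have unlike numbers, as do T567A and wild type and T567A and T567D. Whether their replicate 3 libraries shared a batch was not tested. With a replicate block, wild type against the empty-vector line gave 0 members, 4 wider-list genes and 1082 genes in all (Oat -0.24), T567A against wild type gave 0 members (Slc7a1 0.18, Odc1 -0.20), and Odc1 in T567A against T567D lost its call at -0.11. For wild type against the empty-vector line (main counts 1, 14 and 1966), no filter gave 2 members (Srm gained a call, -0.21), the libraries of these lines alone 2 members and 3029 genes (Srm again, -0.21), DESeq2 6 and 1301, a filter of 5 CPM 9, and limma on log2(RPKM + 1) and log2(RPKM + 0.1) 8 and 7 of the wider list. For T567D against wild type (main counts 1, 0 and 169), no filter gave 2, 1 and 300 (Asl gained a call, -0.38), and limma 89 and 63 genes. For T567A against T567D, Odc1 lost its call with the libraries of these lines alone (-0.18) and Srm gained one with no filter (-0.17). Without 1 library, wild type against the empty-vector line had 0 to 2 members, 2 to 19 wider-list and 840 to 2521 genes, with Oat at -0.25 to -0.20 and Srm at -0.25 to -0.19. T567A against wild type had 1 to 3 members and 11 to 23 wider-list genes, with Slc7a1 at 0.18 to 0.23, Srm at -0.34 to 0.022 and Sms at -0.20 to 0.0038. T567D against wild type had 0 to 2 members and 46 to 311 genes, with Ass1 at 0.77 to 0.95, Asl at -0.43 to -0.31 and Oat at -0.10 to 0.050. T567A against T567D had Oat at 0.063 to 0.21, Odc1 at -0.24 to -0.13, Srm at -0.35 to 0.0077 and Sms at -0.25 to -0.049, and Slc7a1 in T567D against parental cells was at -0.12 to 0.023. The cause was not tested. Where 1 library of a line was left, it was assumed to vary like the others. Counts of Nos2, Arg2 and Slc7a2 are too few for a comparison at this depth.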
